A study of Mus musculus with 16 samples.

Results

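The 10 genes described here carry selenium from selenocysteine to new selenoproteins or to its methylated and transsulfuration products: Scly, Sephs1, Sephs2, Pstk, Eefsec, Secisbp2, Inmt, Tpmt, Cth and Cbs. They were chosen by name, as every probe on the array that is not a control and whose gene name is one of the 10 or an older synonym. This gave 14 probes of 41174, for 10 of 27703 gene names, and all 10 were among the 21248 genes tested. Selenocysteine lyase (Scly) frees selenide from selenocysteine, selenophosphate synthetase 2 (Sephs2) activates it, and the tRNA kinase Pstk prepares the seryl-tRNA on which selenocysteine is built. The elongation factor Eefsec and the SECIS-binding protein Secisbp2 then decode UGA as selenocysteine, while surplus selenide is methylated and excreted. The enzymes Cbs and Cth make cysteine from homocysteine and accept the selenium analogues of their sulfur substrates.

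Lung RNA was taken from 4 groups of 4 female mice of the A/J strain, which is inbred and develops lung tumours readily, 16 in all. NNK+SECY mice received NNK, a tobacco-specific nitrosamine, as 1 intraperitoneal injection of 0.2 mL saline at 10 uM, and from 3 days later ate selenocystine, the oxidised dimer of selenocysteine, at 15 ppm for 10 days. SECY mice received the selenocystine diet alone, NNK mice the injection alone, and Untreated mice neither. All groups were kept on AIN-76 diet with 0.35 ppm selenium, and tissue was taken 13 days after NNK. The mice's age is not given in the labels, and no saline-injected group is among the samples used here. On each array the lung RNA of 1 mouse was labelled with Cy5 and an equal mix of the 4 Untreated lungs with Cy3, without dye swaps, so every value is a log2(Cy5/Cy3) ratio in which 0 equals the pool.

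The arrays had 66.3% to 79.3% of probes well above background in Cy5. Slides 5 to 8 each held an NNK+SECY and a SECY array and slides 1 to 4 an NNK and an Untreated array, so the diet and the slide set cannot be told apart, nor can NNK and the scan, since NNK+SECY and NNK arrays were scanned in 1 session and SECY and Untreated arrays in another. The defining markers of alveolar type 1 and type 2, club, ciliated and endothelial cells were well above background in all groups. SECY 3 stood apart from its group, with a mean correlation of 0.0315 with the other SECY arrays across genes. The mean ratio of 7 hepatocyte markers was highest on NNK+SECY 3 (2.24) and SECY 4 (1.62), followed by NNK+SECY 2 (0.80), Untreated 3 (0.69) and NNK 3 (0.39), and was below 0 on the other 11 arrays. The 5 adipose markers averaged highest on NNK+SECY 1 (0.77) and SECY 3 (0.642), against 0.133 or less on the other 14 arrays, and the 4 alveolar macrophage markers tested averaged lowest on SECY 3 (-0.563). The Sephs2, Tpmt, Cth and Cbs differences are also given without 1 or more of these arrays.

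Each of the 14 probes of the 10 genes stood well above background on all 16 arrays in the Cy5 channel, and none was saturated or flagged as an outlier. Changes were tested with limma on the log2 ratio across all genes, with Benjamini-Hochberg adjustment and a threshold of 0.05 on the adjusted p. Cbs alone of the 10 passed. It was lower in NNK+SECY than in NNK lungs, where 1.75% of all genes were called, and lower over the 8 diet arrays together, where 2.38% were. For the other 9 genes no change was called in any of 7 comparisons, where 0.00471% to 2.38% of all genes were.

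Upstream sequence was available for 9 of the 10 genes in RefSeq (mouse build GRCm38.p6), in windows of 250 bases before and 50 bases after each start. Cth was not listed. The windows were searched on both strands for 3 motifs. The first was TGACNNNGC, the core of the antioxidant response element bound by Nrf2. The second was TTGCATCA, an amino acid response element core bound by Atf4, and the third was the TATA box, TATAAA. Below are the 250 upstream bases of Cbs, the gene that passed, of Sephs2, a selenoprotein gene itself, and of Txnrd1, a selenoprotein gene outside the 10 whose ratio rose with the diet. Motif letters are in capitals, and all sequences run 5′ to 3′ along the gene's strand.
Cbs, chr17:31637206-31637455, minus strand: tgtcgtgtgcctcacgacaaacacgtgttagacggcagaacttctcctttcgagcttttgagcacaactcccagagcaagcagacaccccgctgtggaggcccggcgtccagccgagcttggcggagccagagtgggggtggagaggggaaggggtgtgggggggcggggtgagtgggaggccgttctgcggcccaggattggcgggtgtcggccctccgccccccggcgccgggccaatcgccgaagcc
Sephs2, chr7:127274060-127274309, minus strand: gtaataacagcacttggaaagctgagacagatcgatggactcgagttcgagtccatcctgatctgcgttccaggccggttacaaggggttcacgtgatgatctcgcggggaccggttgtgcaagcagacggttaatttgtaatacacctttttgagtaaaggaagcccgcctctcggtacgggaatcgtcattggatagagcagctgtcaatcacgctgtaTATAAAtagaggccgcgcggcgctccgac
Txnrd1, chr10:82858956-82859205, plus strand: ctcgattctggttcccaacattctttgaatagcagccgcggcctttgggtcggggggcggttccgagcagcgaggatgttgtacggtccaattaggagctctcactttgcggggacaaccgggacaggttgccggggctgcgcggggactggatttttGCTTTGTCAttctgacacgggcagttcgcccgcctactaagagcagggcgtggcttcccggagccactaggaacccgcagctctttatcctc

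Of the 3 motifs, the antioxidant response element core was in 0 of the 10 windows of the 9 genes, against 12.4% of all 32851 windows. Txnrd1 held it in the window shown, reading on the opposite strand, 92 bases before the start. That window was picked among the gene's windows because it held a motif. Of the other genes raised on the diet that were searched, Gclm held it 134 bases before the start. No match was found for Gsr, Gclc or Gpx2. The amino acid response element core was also in 0 of 10 windows, against 0.895% of all. Sephs2 held TATAAA 29 bases before the start and Inmt held it 80 and 69 bases before, which makes 2 of 10 windows against 13.6% of all, and no match among the 10 genes overlapped another. Cbs held none of the 3 motifs, so its sequence has no capitals.

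**Figure D1:**
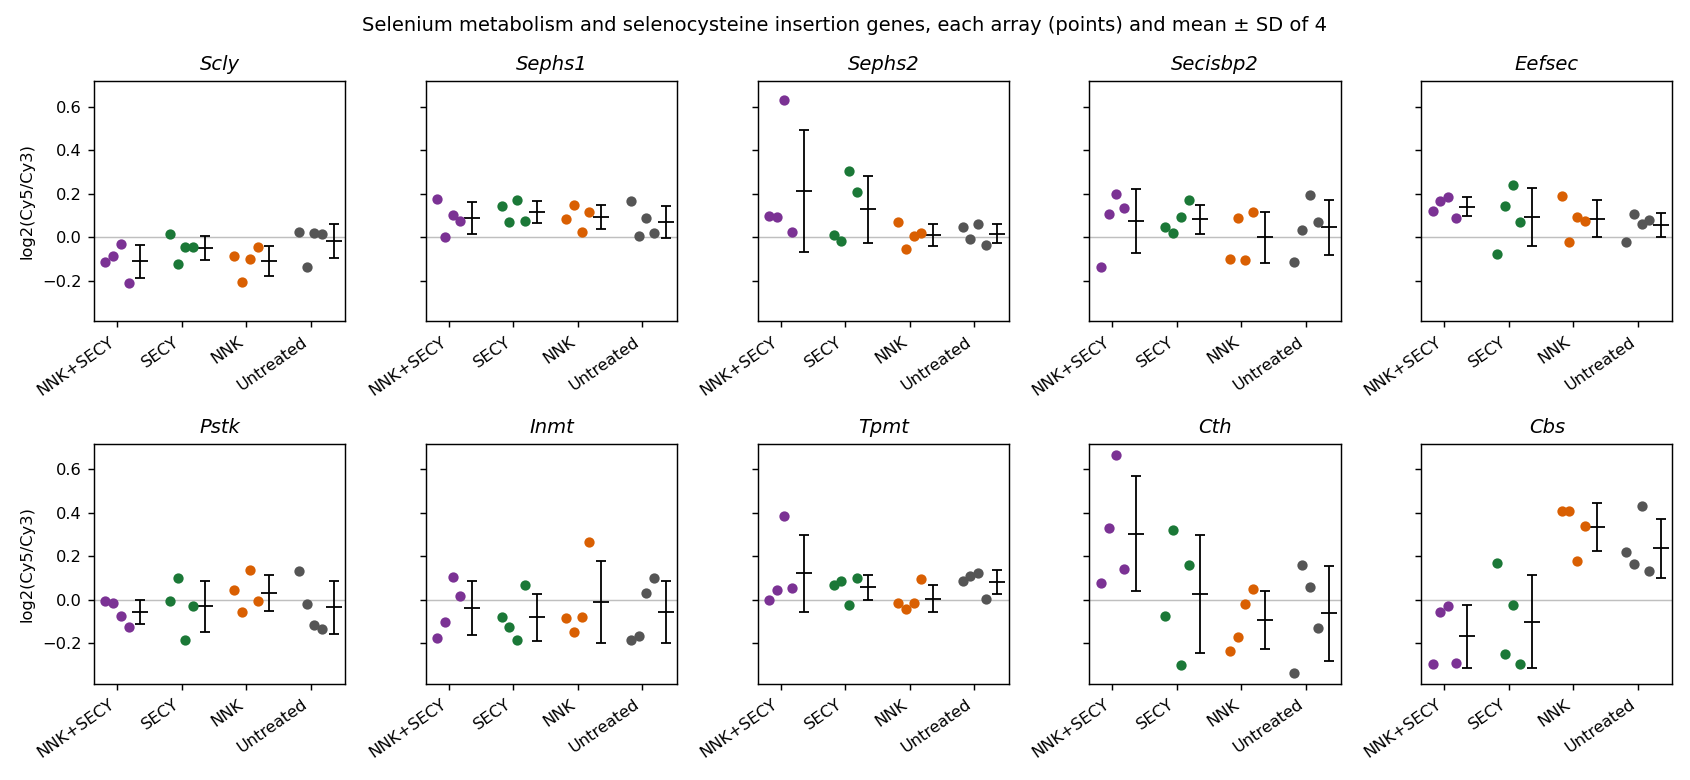
Log2(Cy5/Cy3) of the 10 genes on each of the 16 arrays (points, 4 per group in replicate order) with the group mean and SD beside them. A ratio of 0 is equal signal of the mouse's lung and the pool of Untreated lungs after normalization. Cbs lies lower in NNK+SECY and SECY than in NNK and Untreated, while most of the other genes stay close to 0 in all groups, with NNK+SECY 3 standing high for Sephs2, Tpmt and Cth.

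Among the recycling and selenophosphate genes, none of the 3 passed the test in any comparison. Sephs2 makes selenophosphate, the selenium donor for the tRNA, and carries a selenocysteine of its own. Its log2 ratio was 0.10, 0.09, 0.63 and 0.02 in NNK+SECY lungs, 0.01, -0.02, 0.31 and 0.21 in SECY lungs, 0.07, -0.05, 0.01 and 0.02 in NNK lungs, and 0.04, -0.01, 0.06 and -0.04 in Untreated lungs. NNK+SECY 3, SECY 3 and SECY 4 stood high, and the other 5 diet arrays lay close to the range of the arrays without diet. The groups overlapped in every comparison. Groups without overlap were found for 0.56% to 8.36% of all genes, which is the background for the overlaps given below. NNK+SECY differed from NNK by 0.20 ± 0.11 (SE, adjusted p = 0.567, limma with Benjamini-Hochberg adjustment), and without NNK+SECY 3 by 0.06. Over both NNK states the diet arrays differed from the others by 0.16 ± 0.07 (limma, Benjamini-Hochberg adjusted p = 0.412), and without NNK+SECY 3 and SECY 4 by 0.07.

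Scly, the enzyme that would release selenide from dietary selenocystine once reduced, had mean ratios close to 0 in all groups. Its ratio averaged -0.11 ± 0.08 in NNK+SECY, -0.05 ± 0.06 in SECY, -0.11 ± 0.07 in NNK and -0.02 ± 0.08 in Untreated lungs (SD, n = 4 each). The NNK+SECY against NNK difference was 0.00, with a 95% interval from -0.12 to 0.11. Within slides 1 to 4 NNK was below Untreated on all 4 slides, by 0.06 to 0.12, but the Scly difference of -0.09 between these groups had an unadjusted p of 0.111 and an adjusted p of 1 in limma after Benjamini-Hochberg adjustment. The gene's other probe gave 0.09 in the same comparison, so the 2 Scly probes disagreed in sign.

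Sephs1, a relative of Sephs2 without selenocysteine, averaged 0.09 ± 0.07 in NNK+SECY, 0.11 ± 0.05 in SECY, 0.09 ± 0.05 in NNK and 0.07 ± 0.07 in Untreated lungs (SD, n = 4 each). All groups overlapped. The 95% interval of the Sephs1 difference ran from -0.11 to 0.10 between NNK+SECY and NNK and from -0.06 to 0.15 between SECY and Untreated.

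The genes for building selenocysteine on its tRNA and for decoding it likewise passed in no comparison by limma with Benjamini-Hochberg adjustment. At an unadjusted p under 0.05 the count was also 0 of 3, where 4.61% to 12.3% of all genes lay in the 7 comparisons, so a count of 0 is near the background. Pstk, which phosphorylates the seryl-tRNA, averaged -0.06 ± 0.06 in NNK+SECY, -0.03 ± 0.12 in SECY, 0.03 ± 0.08 in NNK and -0.04 ± 0.12 in Untreated lungs (SD, n = 4 each). The NNK+SECY against NNK difference for Pstk was -0.09 by its brighter probe and 0.09 by the other. The 2 Pstk probes thus gave opposite signs, each within its spread.

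Eefsec, the elongation factor that carries selenocysteinyl-tRNA to the ribosome, had ratios of 0.12, 0.17, 0.18 and 0.09 in NNK+SECY lungs, -0.08, 0.14, 0.24 and 0.07 in SECY lungs, 0.19, -0.02, 0.09 and 0.08 in NNK lungs, and -0.02, 0.10, 0.06 and 0.08 in Untreated lungs. All 4 NNK+SECY arrays lay above 0, and they overlapped with each other group. Secisbp2, which binds the SECIS stem-loop of selenoprotein mRNAs, averaged 0.07 ± 0.15 in NNK+SECY, 0.08 ± 0.07 in SECY, 0.00 ± 0.12 in NNK and 0.04 ± 0.13 in Untreated lungs (SD, n = 4 each). Its differences were 0.08 between NNK+SECY and NNK and 0.04 between SECY and Untreated, both smaller than the spread between arrays.

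For 4 genes the ratios of 2 probes could be set side by side. None of the 4 had a called change, so the values below do not measure how well a probe follows a gene that changes. Across the 16 arrays, the ratios of the 2 probes correlated at 0.03 for Scly, -0.22 for Sephs1, 0.03 for Secisbp2 and -0.06 for Pstk (Pearson's r, description only; all arrays share the pool).

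Neither methyltransferase passed in any comparison by limma with Benjamini-Hochberg adjustment or had an unadjusted p under 0.05, which is near the same background. Inmt methylates indoleamines and also dimethyl selenide, giving an excreted selenonium ion, and in mouse lung its mRNA is abundant in alveolar fibroblasts. The ratio of Inmt was -0.18, -0.10, 0.10 and 0.02 in NNK+SECY lungs, -0.08, -0.12, -0.19 and 0.07 in SECY lungs, -0.08, -0.15, -0.08 and 0.27 in NNK lungs, and -0.18, -0.17, 0.03 and 0.10 in Untreated lungs. NNK 4 was the highest array and all groups overlapped. The means of 7 alveolar fibroblast markers ran from -0.115 to -0.0062 in NNK+SECY, -0.102 to -0.0295 in SECY, -0.0164 to 0.0516 in NNK and -0.0669 to 0.136 in Untreated arrays. Over both NNK states 1 of the 7 markers had a difference above 0, and their median difference was -0.0734. Tcf21, Npnt and Gpc3 fell by 0.30, 0.20 and 0.19 on the log2 scale and Ces1d rose by 0.26 (limma, Benjamini-Hochberg adjusted p = 0.0408, 0.0146, 0.00379 and 0.00384). Thus 3 of 7 were called lower and 1 higher, against 1.76% and 0.622% of all genes. The part of these markers in the Inmt ratio was not tested. In whole lung, fewer cells of a type and less RNA per cell cannot be told apart.

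Tpmt, a thiol methyltransferase that also accepts selenols, had ratios of 0.00, 0.04, 0.39 and 0.05 in NNK+SECY lungs, 0.07, 0.08, -0.02 and 0.10 in SECY lungs, -0.02, -0.04, -0.02 and 0.09 in NNK lungs, and 0.09, 0.11, 0.12 and 0.00 in Untreated lungs. NNK+SECY 3 was the highest array, with Untreated 3 next at 0.12, and the groups overlapped. NNK+SECY differed from NNK by 0.12 ± 0.07 (SE), and without NNK+SECY 3 by 0.03. The Tpmt probe was dim, and the difference was 0.22 with a background offset of 10 and 0.51 with the scanner's processed signals (unadjusted p = 0.0402, adjusted p = 0.524 in limma with Benjamini-Hochberg adjustment), not called in either.

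**Figure D2:**
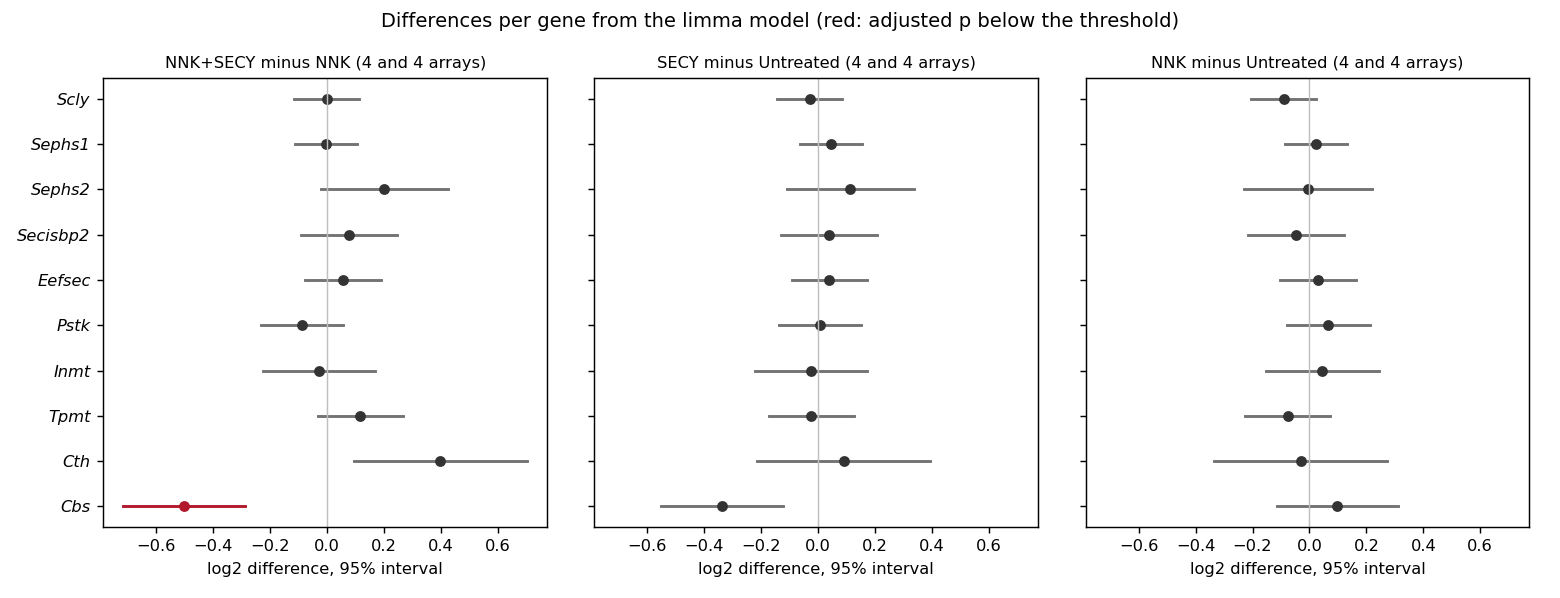
Difference in log2(Cy5/Cy3) with its 95% interval from limma for each of the 10 genes, for NNK+SECY minus NNK, SECY minus Untreated and NNK minus Untreated (4 arrays against 4 each). Cbs, in red, is the 1 gene whose adjusted p is below 0.05 in a panel, at -0.50 for NNK+SECY minus NNK; the NNK minus Untreated values lie between -0.09 and 0.10.

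For the 8 genes other than Cbs and Cth together, the 48 differences in the 6 comparisons other than the interaction ran from -0.09 to 0.20, and their 95% intervals reached at most from -0.23 to 0.42. Taken gene by gene, the interval bounds reached 0.851 to 1.34 times in the NNK+SECY against NNK comparison. Between SECY and Untreated they reached 0.856 to 1.26 times. Each interval covers the spread between arrays for 1 probe of its gene, not the slide set, and is not adjusted for the number of genes. An offset of 50 was added to every signal, which compresses the ratios of dim probes, so the bounds hold on that scale. The Tpmt value of 0.51 with processed signals lies outside them.

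In the transsulfuration pair the ratio differences on the diet had opposite signs, and only those of Cbs were called in any comparison. Cbs, cystathionine beta-synthase, which joins homocysteine and serine, was lower on the diet. Its log2 ratio was -0.30, -0.06, -0.03 and -0.29 in NNK+SECY lungs, 0.17, -0.25, -0.02 and -0.30 in SECY lungs, 0.41, 0.41, 0.18 and 0.34 in NNK lungs, and 0.22, 0.16, 0.43 and 0.13 in Untreated lungs. All 4 NNK+SECY arrays lay below all 4 NNK and all 4 Untreated arrays, whereas SECY 1 lay within the range of the Untreated arrays. All 4 Untreated arrays lay above 0, with a mean of 0.24, although the pool is a mix of these lungs. For this probe a ratio of 0 is therefore not equal abundance, and only differences between groups are read. Cbs was read by a single probe, so no other probe of the gene could check these ratios. The mean log2 intensity of the Cbs probe, with the added offset, was 6.73, against 6.19 for the dim Tpmt probe. In the 4 genes with paired probes, the probes of a pair correlated at -0.22 to 0.03. Those genes had no called change, so these correlations do not measure the Cbs probe.

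NNK+SECY fell below NNK for Cbs by 0.50 on the log2 scale (SE 0.10, a ratio of 0.706), with an adjusted p of 0.0111 (limma, Benjamini-Hochberg). This was 1 of 10 genes, against 1.75% of 21243 genes called in either direction and 1.44% called lower. Cbs and Cth were the 2 of 10 with groups that did not overlap, against 8.36% of all genes, and the 2 of 10 with an unadjusted p under 0.05, against 9.9%. Over both NNK states the 8 diet arrays fell below the 8 others by 0.42 (SE 0.07, limma with Benjamini-Hochberg adjusted p = 0.00192), again 1 of 10 genes against 2.38% of all genes called and 1.76% called lower. The 8 and 8 arrays overlapped for Cbs, through SECY 1, and for each of the other 9 genes, against 0.56% of all genes without overlap. Cbs and Cth had an unadjusted p under 0.05, against 12.3%. Without SECY 3 the Cbs difference was -0.43 (limma, Benjamini-Hochberg adjusted p = 0.00215).

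SECY against Untreated gave Cbs a difference of -0.34 ± 0.10 (SE), with an unadjusted p of 0.00398 and an adjusted p of 0.217 (limma, Benjamini-Hochberg). In that comparison 0 of 10 genes were called, against 0.278% of all genes, and 1 of 10 had an unadjusted p under 0.05, against 8.11% of all. No gene of the 10 had groups without overlap, against 3.88%. NNK+SECY differed from Untreated by -0.40 ± 0.10 for Cbs, with a limma Benjamini-Hochberg adjusted p of 0.0573. There too 0 of 10 genes were called, against 1.6%, and Cbs and Cth had an unadjusted p under 0.05, against 9.23%. Groups without overlap were found there for 1 of 10, Cbs, against 6.78% of all genes. Without SECY 4 and NNK+SECY 3 the Cbs difference was -0.45 with an adjusted p of 0.044 in limma after Benjamini-Hochberg adjustment, and the NNK+SECY against NNK difference was -0.55, with 0.00967.

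By mean ratio for Cbs, NNK+SECY was lowest at -0.17 ± 0.15, followed by SECY at -0.10 ± 0.22, while NNK at 0.33 ± 0.11 was highest, above Untreated at 0.24 ± 0.14 (SD, n = 4 each). NNK and Untreated did not differ beyond their spread, nor did NNK+SECY and SECY. The diet effect on Cbs in NNK-injected and in uninjected mice differed by -0.16 ± 0.14 (SE, interaction term, adjusted p = 1 in limma with Benjamini-Hochberg adjustment). No interaction was called for any of the 10 genes, against 0.00471% of all genes, and 0 of 10 had an unadjusted p under 0.05, against 4.61%.

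The lower Cbs ratio came with a higher signal of the pool, which is the same RNA on every array. The log2 Cy3 signal of Cbs was 6.78, 6.87, 6.83 and 6.92 on NNK+SECY arrays, 6.70, 6.79, 6.98 and 7.03 on SECY arrays, 6.44, 6.62, 6.66 and 6.62 on NNK arrays and 6.29, 6.46, 6.52 and 6.62 on Untreated arrays. All 8 arrays of slides 5 to 8 lay above all 8 of slides 1 to 4, which was so for 4.5% of the 20658 genes with a Cy3 value on all arrays. The log2 Cy5 signal of the mouse's own lung was 6.48, 6.82, 6.80 and 6.63 in NNK+SECY, 6.87, 6.54, 6.95 and 6.73 in SECY, 6.85, 7.03, 6.84 and 6.96 in NNK and 6.51, 6.63, 6.95 and 6.76 in Untreated lungs. The Cy5 signals of NNK+SECY lay below those of NNK on every array, and those of SECY and Untreated overlapped.

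Averaged over both NNK states, Cbs differed by 0.33 in Cy3 and by -0.09 in Cy5 between the diet arrays and the others, and 7.41% of all genes had a Cy3 difference at least as high. For the genes called lower over both NNK states the median differences were 0.122 in Cy3 and -0.317 in Cy5. Tested on the Cy5 signal alone, the Cbs difference over both NNK states was -0.09 (adjusted p = 0.394, limma with Benjamini-Hochberg adjustment), and between NNK+SECY and NNK it was -0.24 (adjusted p = 0.185). Between SECY and Untreated the Cbs difference turned to the other direction on Cy5 alone, at 0.06 (adjusted p = 0.705), against -0.34 as a ratio. Every diet array lies on slides 5 to 8, so what the diet and what the slides gave to this ratio cannot be told apart. The call between NNK+SECY and NNK was also lost without NNK+SECY 1 (-0.46, adjusted p = 0.0516) or NNK+SECY 4 (-0.46, adjusted p = 0.0514). NNK+SECY 1 is the array highest in adipose markers, whose part in the Cbs ratio was not tested. The size of the difference grew to -0.82 with a background offset of 10 and to -1.03 with the scanner's processed signals, where it passed.

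**Figure D3:**
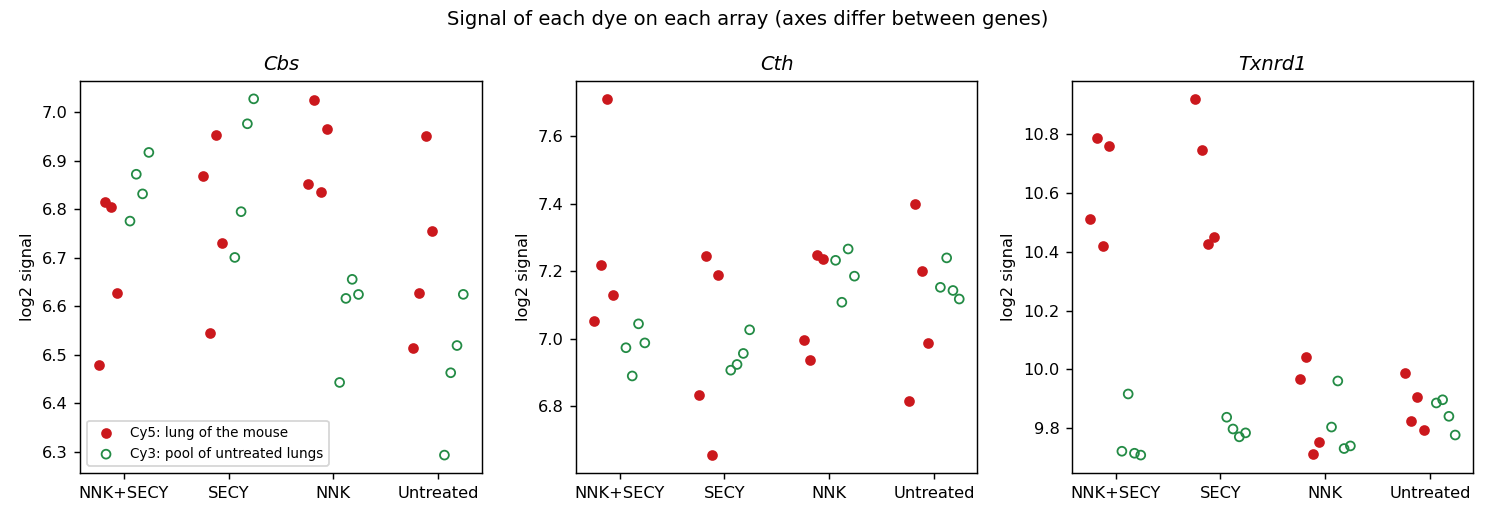
Log2 signal of Cy5 (filled red, the mouse's lung) and Cy3 (open green, the pool of Untreated lungs) on each array for Cbs, Cth and Txnrd1, by group, after normalization between arrays. For Cbs and Cth the pool's signal differs between the diet arrays and the others with no overlap, upward for Cbs and downward for Cth, while for Txnrd1 the Cy5 signal is higher on all 8 diet arrays and the Cy3 signals overlap.

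Cth, cystathionine gamma-lyase, which splits cystathionine to cysteine and also cleaves selenium analogues, had ratios of 0.08, 0.33, 0.67 and 0.14 in NNK+SECY lungs, -0.07, 0.32, -0.30 and 0.16 in SECY lungs, -0.24, -0.17, -0.02 and 0.05 in NNK lungs, and -0.34, 0.16, 0.06 and -0.13 in Untreated lungs. All 4 NNK+SECY arrays lay above all 4 NNK arrays, and all other pairs of groups overlapped. The NNK+SECY against NNK difference for Cth was 0.40 ± 0.14 (SE), with an unadjusted p of 0.0134 and an adjusted p of 0.291 (limma, Benjamini-Hochberg), so it was not called. Without NNK+SECY 3 it was 0.28. Over both NNK states the Cth difference was 0.24 ± 0.10 (SE, limma with Benjamini-Hochberg adjusted p = 0.324). Without SECY 3 it was 0.30 (adjusted p = 0.0935), and without NNK+SECY 3 it was 0.18 (adjusted p = 0.473).

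Between NNK+SECY and NNK the Cth difference was also split between the dyes, at 0.17 in Cy5 and -0.22 in Cy3. Over both NNK states it lay mostly in the pool's signal, at 0.03 in Cy5 and -0.22 in Cy3. The Cy3 signal lay between 6.89 and 7.04 on slides 5 to 8 and between 7.11 and 7.27 on slides 1 to 4, and 2.99% of all genes likewise had a lower Cy3 signal on all 8 arrays of slides 5 to 8. By mean ratio for Cth, NNK+SECY was highest at 0.30 ± 0.26, followed by SECY at 0.03 ± 0.27, and NNK at -0.09 ± 0.13 was lowest, below Untreated at -0.06 ± 0.22 (SD, n = 4 each). The neighbours NNK+SECY and SECY differed by 0.28 ± 0.14 (SE, unadjusted p = 0.0708, adjusted p = 0.824 in limma with Benjamini-Hochberg adjustment), slightly more than their SDs, while SECY and Untreated, and NNK and Untreated, differed by less than their SDs.

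**Figure D4:**
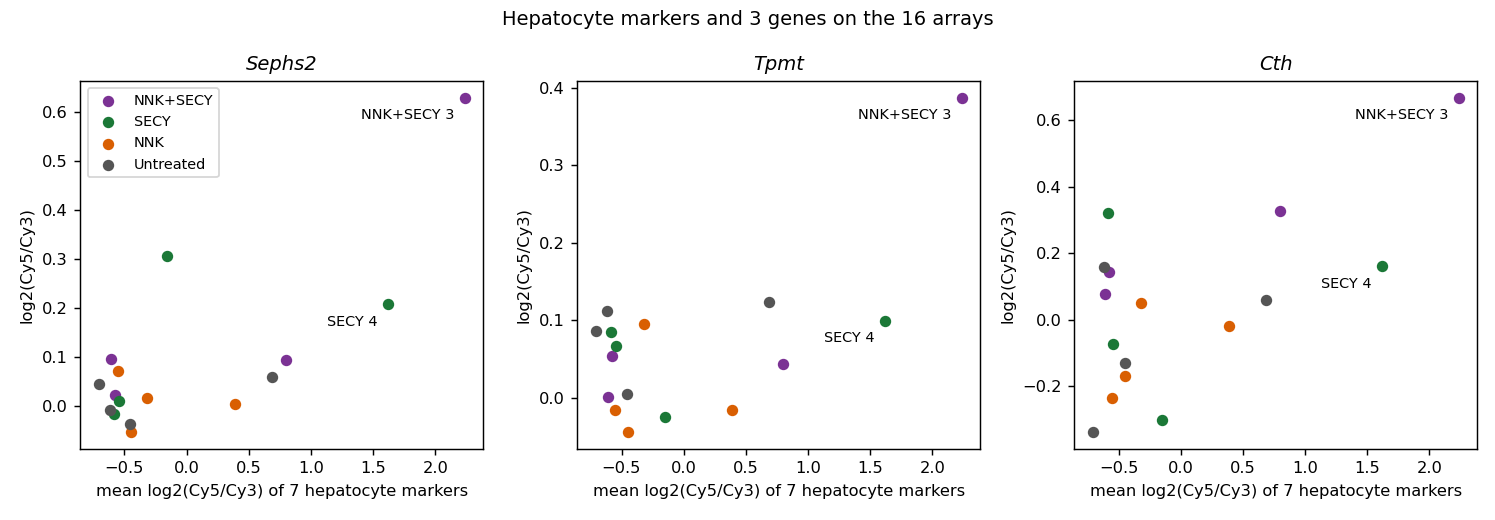
Log2(Cy5/Cy3) of Sephs2, Tpmt and Cth on the 16 arrays (vertical axes) against the mean log2(Cy5/Cy3) of 7 hepatocyte markers (horizontal axes), coloured by group. NNK+SECY 3, with the highest marker mean at 2.24, is the highest array for all 3 genes. SECY 4, next at 1.62, has 0.21 for Sephs2, 0.10 for Tpmt and 0.16 for Cth.

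Sephs2, Tpmt and Cth had their highest ratios, 0.63, 0.39 and 0.67, on the same array, NNK+SECY 3, where the hepatocyte markers were also highest. Of the 7 markers, Alb, Ahsg and Tat were well above background on all 16 arrays, while Apoa1 was so on 4 arrays and Ttr on 3. The marker means ranged from -0.612 to 2.24 in NNK+SECY, -0.587 to 1.62 in SECY, -0.555 to 0.389 in NNK and -0.708 to 0.686 in Untreated arrays. SECY 4 and NNK+SECY 2, next in marker level, had Cth ratios of 0.16 and 0.33, and Untreated 3 had 0.06. Cbs had no such peak on NNK+SECY 3. Its ratio was -0.03 there, the highest of that group, and -0.30 on SECY 4, the lowest of that group. On NNK+SECY 2 and Untreated 3 the Cbs ratios were -0.06 and 0.43. The part of liver RNA in these ratios was not tested. Across the 16 arrays, Cth correlated with Tpmt at 0.74 and Sephs2 with Tpmt at 0.69 (Pearson's r, description only; the arrays share the pool). Without NNK+SECY 3 these were 0.48 and -0.08 over 15 arrays.

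NNK against Untreated called 0 of 10 genes by limma with Benjamini-Hochberg adjustment, against 0.32% of all genes, and 0 of 10 had an unadjusted p under 0.05, against 5.04%. Groups overlapped for all 10, against 3.75% of all genes without overlap. The differences ran from -0.09 for Scly to 0.10 for Cbs, and their 95% intervals reached from -0.33, for Cth, to 0.31, for Cbs. With the scanner's processed signals Tpmt was at -0.34, again not called. Within slides, NNK minus Untreated for Cbs was 0.19, 0.24, -0.25 and 0.21 on slides 1 to 4, so 1 slide ran the other way. NNK+SECY against SECY likewise called 0 of 10 genes, against 0.00942% of all, and 0 of 10 at an unadjusted p under 0.05, against 6.14%. All 10 had overlapping groups, against 2.78% without overlap, and the highest difference was 0.28 for Cth. Within slides this Cth difference was 0.15, 0.01, 0.97 and -0.02 on slides 5 to 8, with slide 7 holding NNK+SECY 3.

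Other genes of these pathways were followed in 5 lists. The lists were chosen with earlier results of these data known, so their counts against the share of all genes are description only. Of 9 other genes of selenocysteine synthesis and decoding, among them Sepsecs, which completes selenocysteine on the tRNA, and Trnau1ap, a partner of that tRNA, 0 passed in any of the 7 comparisons by limma with Benjamini-Hochberg adjustment. Of all genes 0.00471% to 2.38% passed there. At most 1 of the 9 had an unadjusted p under 0.05 in a comparison, against 4.61% to 12.3% of all genes over the 7 comparisons. Over both NNK states this was Trit1, a tRNA isopentenyltransferase, at 0.10 ± 0.04 (SE), and 1 of 9 is near the 12.3% of all genes there. The median difference of the 9 was -0.00223, against -0.00397 for all genes.

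Beside the 10 genes, reductases that can act on diselenides or disulfides had higher ratios on the diet. Of 12 tested genes for selenium supply and for the uptake and reduction of cystine, 2 rose and 0 fell in NNK+SECY against NNK, in SECY against Untreated and over both NNK states, where 0.306%, 0.212% and 0.622% of all genes were called higher. Txnrd1, the cytosolic thioredoxin reductase, which reduces selenocystine in vitro, differed by 0.80 ± 0.06 (SE) and Gsr, glutathione reductase, by 0.49 ± 0.06 over both NNK states (limma, Benjamini-Hochberg adjusted p = 1.65e-06 and 9.38e-05). These differences lay mostly in the Cy5 signal, at 0.75 in Cy5 and -0.05 in Cy3 for Txnrd1, and at 0.55 in Cy5 and 0.06 in Cy3 for Gsr. The diet and the slide set cannot be told apart in the Cy5 signal either. The median of the 12 over both NNK states was 0.0583, and Slc7a11, the cystine transporter subunit, stood at 0.18 with a limma Benjamini-Hochberg adjusted p of 0.23.

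Of 21 tested genes of the methionine cycle, transsulfuration and cysteine use outside Cbs and Cth, 2 rose and 0 fell over both NNK states, against the same 0.622% of all genes called higher. Gclc and Gclm, the subunits of the glutamate-cysteine ligase that starts glutathione synthesis, differed by 0.45 ± 0.06 and 0.38 ± 0.07 (SE, limma, Benjamini-Hochberg adjusted p = 0.000305 and 0.00247). The Gclm difference was 0.14 in Cy5 and -0.24 in Cy3. The median of the 21 was 0.101. Of 8 other small-molecule methyltransferases 0 passed in any comparison. At most 2 had an unadjusted p under 0.05, in NNK+SECY against Untreated, where 9.23% of all genes did. Mettl7a1 was nearest, at 0.22 ± 0.06 over both NNK states with an adjusted p of 0.0798 in limma with Benjamini-Hochberg adjustment. Among 21 selenoprotein genes other than Sephs2, Gpx2 and Txnrd1 rose over both NNK states and 0 fell, again against 0.622%, with a median of 0.0154. Txnrd1 is also in the list of selenium supply and cystine reduction, so it is counted in both.

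The genes whose pattern over the 16 arrays was most like that of Cbs were Trpv2, Creb3l3 and Chsy3, with Pearson's r of 0.963, 0.959 and 0.958. For Cth they were Micu3, Scrn3 and Cdo1, at 0.906, 0.838 and 0.834, and at 0.921, 0.867 and 0.757 without NNK+SECY 3. All arrays share the pool, and the slide set enters each of these values.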

How the data were processed

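Per the file headers, the authors extracted 16 2-colour Agilent arrays using Feature Extraction 8.1.1.1. The deposited files give the mean, background and processed signals of each spot as intensity and a log10 ratio of Cy5 over Cy3. The authors' deposited value table is on a log2 scale and was used as an alternative. From the mean and background intensities, limma 3.58.1 in R 4.3.3 subtracted background (normexp, offset 50) and normalized within arrays by loess, with control and outlier spots at weight 0. Cy5 and Cy3 signals given on their own were also quantile-normalized between arrays on their average. Probes were named through RefSeq accessions and synonyms. A gene was its brightest probe, tested where its Cy5 signal was well above background throughout at least 1 group. One limma model over the 16 arrays gave 7 contrasts, with p-values adjusted over all genes tested. It was tested on simulated data. The 10 genes, whatever their values, were named, with listed genes that passed or had the smallest p. The members and lists were chosen with earlier results of these data known. The number of arrays limits the precision. Promoter windows are RefSeq's (GRCm38.p6), and no source used here gives the arrays' own genome build. Alternatives changed the background, scaling, filters, probes, blocks, weights or arrays used. Same-numbered arrays of different groups did not all correlate above 0.1, so they were not paired.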

Additional observations from a re-analysis of the deposited data

Results flagged for a closer look

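Of 40 sets of 4 arrays (10 genes in 4 groups), 4 held an array far from the other 3 by Dixon's criterion, and chance gives about 1 in 20. Sephs2 on NNK+SECY 3 had a log2 ratio of 0.63, against 0.0227 to 0.0967 on the other NNK+SECY arrays. Tpmt on the same array had 0.387, against 0.000896 to 0.0538. This array also had the highest mean of the hepatocyte markers, 2.24, and the part of that in the ratios was not tested. Inmt on NNK 4 had 0.266, against -0.147 to -0.0779 on the other NNK arrays. Scly on Untreated 2 had -0.135, against 0.0145 to 0.0256 on the other Untreated arrays.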

How the results depend on the processing

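Of the 70 differences of the 10 genes, 66 kept their call under every alternative, 4 (all of Cbs) gained or lost it under some, and 0 called differences reversed. The sign was the same under every alternative for 23 of the 70 and turned under at least 1 for 47, of which Cbs between SECY and Untreated, -0.34 in the report, was 0.06 on the Cy5 signal alone. Cbs between NNK+SECY and NNK passed under 21 of 24 alternatives (-1.03 to -0.24) and over both NNK states under 31 of 32 (-0.88 to -0.09), both lost on the Cy5 signal alone. Cbs between NNK+SECY and Untreated, not called in the report, passed under 6 of 24, and between SECY and Untreated under 1 of 24 (without SECY 1, -0.43, limma adjusted p = 0.0388). The count of all genes called moved more. Between SECY and Untreated 59 became 4619 on the Cy5 signal alone, 262 with array weights, 110 with the replicate block and 29 with only the arrays compared, and 44 to 232 with 1 array left out. Between NNK+SECY and NNK 371 became 1633 on Cy5 alone, and 279 to 374 with 1 array left out. Between NNK and Untreated 68 became 41 with median centring, 25 with processed signals, 22 with the authors' deposited table, 462 on Cy5 alone, 45 with probes averaged, 43 with the slide as a fixed block, 42 with only the arrays compared, and 18 to 131 with 1 array left out. Between NNK+SECY and SECY 2 became 29 on Cy5 alone and 0 with offset 10, processed signals, the authors' deposited table, probes averaged, an intensity trend, the slide as a fixed block, only the arrays compared, or without SECY 4 and NNK+SECY 3, and 0 to 7 with 1 array left out. Between NNK+SECY and Untreated 339 became 3298 on Cy5 alone, 528 with array weights, and 164 to 265 with 1 array left out. For the interaction 1 became 2 with the replicate block or every probe as a row, 3 with the slide as a random block, and 0 under no background, offset 10, median centring, processed signals, the deposited table, Cy5 alone, no filter, probes averaged, an intensity trend, the slide as a fixed block, or without SECY 4 and NNK+SECY 3, and 0 to 3 with 1 array left out. Over both NNK states 506 became 6632 on Cy5 alone, 1270 with array weights, and 407 to 857 with 1 array left out. The causes were not tested. Same-numbered arrays correlated from -0.122 to 0.503, and the replicate block gave Cbs -0.50 between NNK+SECY and NNK (limma adjusted p = 0.0118) and changed no call of the 10 genes. Leaving out SECY 4 and NNK+SECY 3 was chosen after seeing the data. Ratios near background are the least precise.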
